A study of Mus musculus with 10 samples.

Results

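The mitochondrial ribosomal protein genes are the nuclear genes whose symbols begin with Mrpl or Mrps. A gene was a member when its symbol was Mrpl or Mrps followed by a number and at most 1 letter and when it had a curated RefSeq messenger RNA row, and 1 row per symbol, that with the highest mean reads, stood for it. These rules gave 76 members of 23992 gene symbols, 47 named Mrpl and 29 named Mrps, spread over 17 chromosomes. Their RNA was read in regulatory T cells (Tregs), the Foxp3-dependent CD4 lineage that holds immune responses in check, of C57BL/6J mice, in 10 libraries.

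Wild-type natural Tregs from spleen were held for 24 h in culture with antibodies to CD3 and CD28, which trigger the T cell receptor, either alone (2 libraries, called TCR) or together with the epithelial cytokine thymic stromal lymphopoietin (2 libraries, called TCR + TSLP). Lung Tregs came from allergic lungs of ovalbumin-immunized mice, all carrying Foxp3YFP-Cre, in which Cre recombinase is made where Foxp3 is active. The 3 control libraries carried no other listed allele, and the 3 Crlf2-deleted libraries also carried Crlf2fl/fl, so that the TSLP receptor gene is removed only where that Cre acts. The sources used here give no ages, sexes or pooling of animals. Nor do the labels tell whether replicates came from different animals or cultures, and p-values therefore rest only on the spread among these libraries, which could be technical.

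Mitochondria keep a small genome of their own and translate its messages on a dedicated ribosome, related to that of bacteria. All proteins of this ribosome are encoded in the nucleus, made in the cytosol and imported. The products of the mitochondrial genome that it makes are core parts of the respiratory chain and of ATP synthase, and T cells build up mitochondrial mass and translation after activation. The large subunit joins amino acids and releases the growing chain at the inner membrane, and the small subunit binds and decodes the message. Some of its proteins have relatives in bacterial ribosomes and others occur in mitochondria only. By these roles, 29 members were large-subunit proteins with a bacterial relative and 20 were large-subunit proteins of mitochondria only, among them Mrps30 and Mrps18a despite their names. A further 16 were small-subunit proteins with a bacterial relative and 10 were small-subunit proteins of mitochondria only. The split is a simplification. Mrps18a and Mrps18b were counted with the proteins of mitochondria only, although Mrps18c, a variant of them, was counted as having a bacterial relative. Mrps36, also known as a part of the oxoglutarate dehydrogenase complex, was counted on its own.

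Promoters of members are shown first, because this family is known for promoters without a TATA box that bind NRF1, GABP and YY1. RefSeq promoter windows on GRCm38.p6, which run from 250 bases before to 50 after a gene's start, were matched by symbol for 67 of the 76 members (73 windows, 3 members with several). The start used need not be the first base of the gene span, the stretch that all RefSeq transcripts of a gene cover together. It lay within 50 bases of the span's start for 53 of the 67 members, and within 50 bases of the GENCODE start of the transcript read here for 50 of 67. The 4 windows below belong to Mrps21 and Mrpl52, the members with the largest falls with TSLP, to Mrpl35, which fell and whose window holds a YY1 match, and to Mrps2, the only member that rose. Each is printed 5′ to 3′ on the gene's strand, and capitals mark matches on either strand to the NRF1 motif with 1 base left free, CCGGAAG (the ETS family, to which GABP belongs), AAGATGGCG (YY1) or CACGTG (an E-box, the motif that MYC binds). The Mrps21 window lies at chr3:95871465-95871764 on the minus strand, that of Mrpl52 at chr14:54426659-54426958 on the plus strand, that of Mrpl35 at chr6:71823735-71824034 on the minus strand and that of Mrps2 at chr2:28467816-28468115 on the plus strand.
Mrps21: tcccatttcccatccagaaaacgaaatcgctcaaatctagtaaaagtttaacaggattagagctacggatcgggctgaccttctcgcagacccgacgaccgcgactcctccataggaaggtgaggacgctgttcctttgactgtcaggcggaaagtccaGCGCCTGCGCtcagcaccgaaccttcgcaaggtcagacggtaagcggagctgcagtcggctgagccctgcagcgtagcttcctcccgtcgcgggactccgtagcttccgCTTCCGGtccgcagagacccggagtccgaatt
Mrpl52: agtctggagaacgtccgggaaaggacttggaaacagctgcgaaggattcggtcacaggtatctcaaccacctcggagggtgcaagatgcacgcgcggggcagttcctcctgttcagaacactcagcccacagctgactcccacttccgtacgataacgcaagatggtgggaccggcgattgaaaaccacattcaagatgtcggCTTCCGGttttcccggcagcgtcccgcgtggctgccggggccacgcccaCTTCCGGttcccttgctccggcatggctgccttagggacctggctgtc
Mrpl35: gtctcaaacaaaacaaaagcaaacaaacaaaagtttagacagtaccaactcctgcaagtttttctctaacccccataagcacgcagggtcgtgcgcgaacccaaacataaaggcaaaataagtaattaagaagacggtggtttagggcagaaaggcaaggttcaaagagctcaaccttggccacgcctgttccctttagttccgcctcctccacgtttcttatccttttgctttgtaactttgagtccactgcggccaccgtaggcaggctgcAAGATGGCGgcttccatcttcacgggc
Mrps2: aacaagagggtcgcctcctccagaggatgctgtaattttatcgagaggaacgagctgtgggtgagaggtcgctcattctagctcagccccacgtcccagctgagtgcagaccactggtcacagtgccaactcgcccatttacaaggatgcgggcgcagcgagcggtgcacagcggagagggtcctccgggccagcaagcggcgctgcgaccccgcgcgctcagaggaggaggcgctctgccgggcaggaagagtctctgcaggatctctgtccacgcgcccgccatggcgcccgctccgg
In the Mrps21 window 1 match to this NRF1 motif and 1 to CCGGAAG were found, in that of Mrpl52 2 matches to CCGGAAG, and in that of Mrpl35 1 to AAGATGGCG just after the start. The Mrps2 window held none of the letters searched, which says only that they are absent from these 300 bases. Its start is the GENCODE start of the transcript read here, 2115 bases inside the Mrps2 gene span, and the bases before the span's own start were not searched. The start used for Mrps21 is that of its gene span, 895 bases from the GENCODE start of the Mrps21 transcript that was read.

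Over the 73 member windows, CCGGAAG on either strand was present in 32.9%, against 17.1% of the 12373 windows of genes tested in the spleen comparison and 8.86% of all 32851 windows of this length. AAGATGGCG was present in 11% of member windows, against 2.89% of those of tested genes and 1.4% of all windows. The strict NRF1 motif was found in 4.11% of member windows (Mrpl9, Mrpl32 and Mrpl39) and 2.07% of tested-gene windows, and the motif with 1 base left free, which includes every strict match, in 16.4% and 9.73%. CACGTG was present in 7 member windows (9.59%, against 9.84% of those of tested genes), but 3 of these are overlapping windows of Mrpl2. Counted by gene, 5 of the 67 members held it (7.46%), against 11.6% of tested genes. CCAAT was present in 41.1% of member windows and 38.0% of tested-gene windows. TATAAA was in 6.85% of member windows, 7.15% of tested-gene windows and 13.6% of all windows. Members of the set that fell with TSLP, with 55 windows, held CCGGAAG in 30.9%, AAGATGGCG in 12.7% and the NRF1 motif with 1 base left free in 14.5%, and the strict NRF1 motif in 0. The 3 members with a strict match were not called. These are matches of letters and were not tested.

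All members were detected in all 10 libraries. Reads on genes, with 1 row per symbol, came to 27237300 to 51671842 per spleen library and to 1439662 (control replicate 2) to 18348974 per lung library. The Treg and T cell markers (Cd3e, Cd4, Foxp3, Il2ra, Ikzf2, Ctla4, Tnfrsf18) were present in every group, 7 of 7. Control replicate 3 stood apart among the lung libraries. Its 7 Treg and T cell markers summed to 1559 CPM (per library total), against up to 3415 in the other controls and 3687 to 3785 after deletion, and its Foxp3 was at 174 CPM, against 445 and 443 in the other controls and 411 to 528 after deletion. It had the highest sums of erythroid (53719 CPM), myeloid (3726), B cell (208) and NK cell (66.1) markers of all libraries, and the main lung results are given with and without it. As a check of the labels, Crlf2 had 92.8, 146 and 105 CPM (normalised read counts, scaled for library size and composition) in lung controls against 9.06, 6.73 and 3.55 after deletion (adjusted p = 0.00465, log2 fold change -4.16, edgeR quasi-likelihood test). Exons of 25 members overlap those of another gene, 21 of them on the opposite strand. The sources used here do not give the strand rule of the counting, so reads of these members and of their partners cannot be told apart.

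Per length, members were moderately expressed in cultured spleen Tregs and lower in lung Tregs. The median member stood at 21.6 and 25.7 RPKM (reads scaled to transcript length and library total) in the TCR libraries and at 23.5 and 23.1 in the TCR + TSLP libraries. In lung it was at 6.35, 5.34 and 7.0 RPKM in controls and at 8.48, 7.1 and 9.33 after deletion. The deposited RPKM divide by a library total of which genes took 37.8 to 44.5% in spleen and 14.9 to 23.6% in lung, and this difference sits inside every RPKM set across the 2 tissues. As a share of reads on genes, which leaves that total out, members took 0.640 and 0.655% in TCR, 0.500 and 0.480% in TCR + TSLP, 0.359, 0.362 and 0.308% in control lung and 0.366, 0.342 and 0.382% in Crlf2-deleted lung. On that scale the TCR libraries were highest, the TCR + TSLP libraries next and all 6 lung libraries lowest, with the lung groups overlapping. Tissue, culture, stimulation and possibly the library kit differ together between spleen and lung and cannot be told apart, so no test was made between them. In bulk RNA such as this, fewer cells of a type and less RNA per cell cannot be told apart either.

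**Figure D1:**
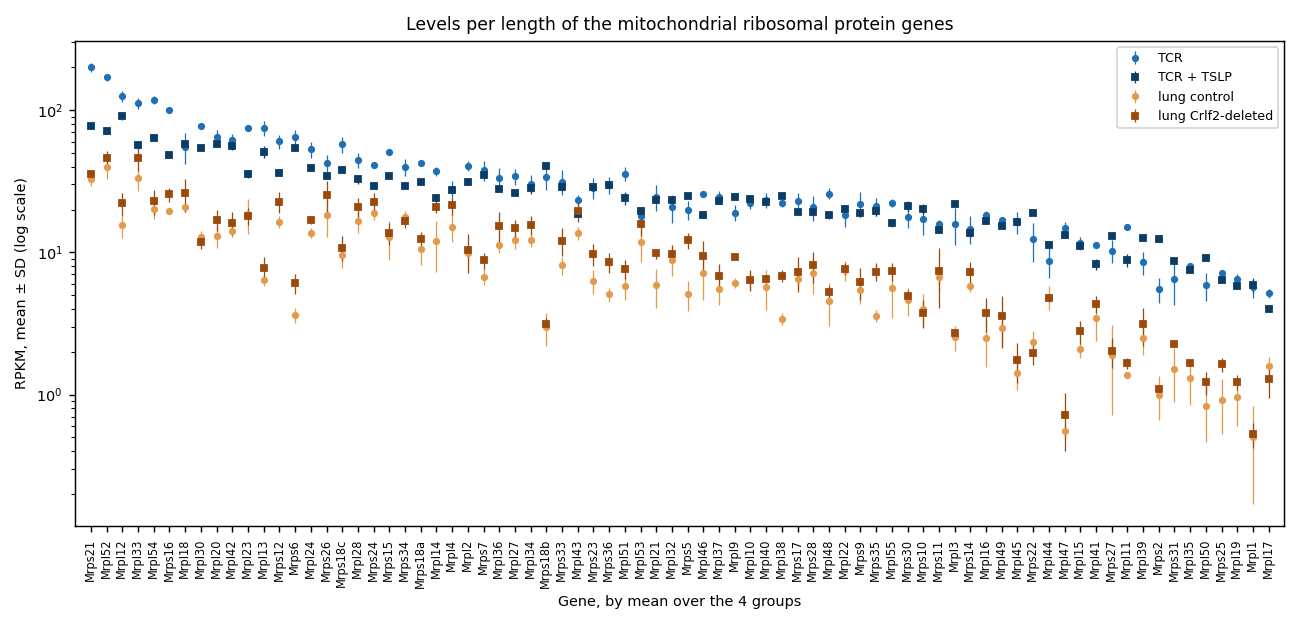
RPKM of each of the 76 members on a log axis in the 4 groups, as group means with bars of 1 SD (n = 2 in spleen, n = 3 in lung), with members ordered by their mean over the groups. Spleen groups lie above both lung groups for most members, and Mrps21 and Mrpl52 are at or near the top in every group.

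The highest members per length were short genes. Mrps21, a small-subunit protein with a bacterial relative, stood at 211 and 191 RPKM in TCR, 79.5 and 74.7 in TCR + TSLP, 36.8, 30.1 and 31.4 in control lung and 34.0, 33.8 and 38.3 in Crlf2-deleted lung. Mrpl52, a large-subunit protein of mitochondria only, stood at 177 and 164, at 73.7 and 69.4, at 39.5, 33.0 and 46.9 and at 45.5, 41.2 and 51.6 RPKM in the same order of libraries. Both were far higher in the TCR libraries than in any other, and their ranges in the 2 lung groups overlap. Mrpl12, a stalk protein that is also reported to bind the mitochondrial RNA polymerase, stood at 117 and 133 RPKM in TCR, 94.3 and 87.0 in TCR + TSLP, 19.0, 13.9 and 13.7 in control lung and 20.7, 19.3 and 26.6 in Crlf2-deleted lung. By its group mean it was the highest member of all in TCR + TSLP, but the 13th in control lung. Mrpl33, the fourth by the mean of the groups, was the second in both lung groups and the fifth in TCR.

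By the mean over the groups, members with long transcripts were at the lower end. Mrpl17, a protein of the exit tunnel region, was lowest over the groups, at 4.87 and 5.42 RPKM in TCR, 4.05 and 3.92 in TCR + TSLP, 1.48, 1.44 and 1.88 in control lung and 1.23, 0.982 and 1.63 in Crlf2-deleted lung. Mrpl1, of the mobile L1 stalk, was lowest in both lung groups, at 0.430, 0.211 and 0.860 RPKM in controls and 0.645, 0.480 and 0.455 after deletion, while in spleen it stood at 5.05 to 6.35. In single lung libraries Mrpl47, with a row of only 872 bases, was lowest in control replicate 3 (0.563 RPKM) and Crlf2-deleted replicate 2 (0.356). After Mrpl17 and Mrpl1, Mrpl19 and Mrps25 completed the lowest 4 over the groups. Low RPKM of such members depends on the length used, because the RefSeq row of Mrpl17 is 6712 bases long and its shortest coding transcript in the GENCODE annotation 1028 bases. The order of members by RPKM was much alike between groups, with a Spearman rho over the 76 members of 0.95 between TCR and TCR + TSLP, 0.97 between the lung groups and 0.84 between TCR and control lung. These correlations are descriptions over genes, which are not replicates, and every library shares the transcript lengths. The Mrps18 genes make 3 variant proteins that sit in different places of the ribosome and stood at different levels. Mrps18b stood at 29.3 and 38.4 RPKM in TCR and 41.7 and 39.1 in TCR + TSLP but at 2.47 to 3.89 in the 6 lung libraries. Mrps18c was at 52.4 and 62.8 in TCR, 39.4 and 36.9 in TCR + TSLP and 7.45 to 12.9 in lung, and Mrps18a at 42.3 and 42.6, 31.9 and 30.3 and 7.81 to 13.6.

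The first comparison asked how spleen Tregs stimulated through the T cell receptor change when TSLP is added. With TSLP, most mitochondrial ribosomal protein genes were lower relative to other genes. Of the 76 members, all tested among 13214 genes, 57 fell (75%, against 23.1% of all genes tested), 1 rose (Mrps2, against 22.7% of all genes) and 18 did not pass the test (edgeR quasi-likelihood test, Benjamini-Hochberg adjusted p under 0.05). The median log2 fold change of members was -0.51, beside 0.01 for all genes tested, and single members ranged from -1.76 to 0.80. Both TCR + TSLP libraries were below both TCR libraries for 63 members (82.9%, against 37.3% of all genes), and above both for 4 (5.26%, against 38.1%). Marker levels also differed between these cultures. The 7 Treg and T cell markers summed to 2341 to 2373 CPM without and 3204 to 3377 with TSLP, and most of that gap was Il2ra, the IL-2 receptor alpha chain (939 and 978 against 1686 and 1800), while Foxp3 (166 and 144 against 144 and 162) overlapped and Tnfrsf18 (423 and 447 against 397 and 393) was lower. The 2 CD8 T cell markers summed to 30.6 to 31.3 CPM without and 21.0 to 22.3 with TSLP, the 3 B cell markers to 55.4 to 56.1 and 51.6 to 54.1, and the 2 endothelial markers, nearly all Pecam1, to 29.2 to 30.1 and 37.0 to 38.6. The 4 myeloid markers were under 5 CPM and the 2 NK cell and 2 erythroid markers under 1 in all 4 libraries. The part of other cells in the members' values was not tested. The choice of scaling sets where zero lies. With library totals alone the median of all genes moved from 0.01 to 0.24 and that of members from -0.51 to -0.28, so members were 0.52 below other genes on both scales, and 42 members fell (against 15.1% of all genes) and 4 rose (against 38.3%). On log2(RPKM + 1), tested with limma, the median member was at -0.13 and that of all genes at 0.20, and 25 members fell (against 9.45% of all genes) and 4 rose (against 43.0%, namely Mrps2, Mrpl39, Mrpl50 and Mrps22, as with library totals). On that scale Mrpl10, Mrpl45, Mrps23 and Mrps36, called lower in the main test, lay above 0 without passing.

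**Figure D2:**
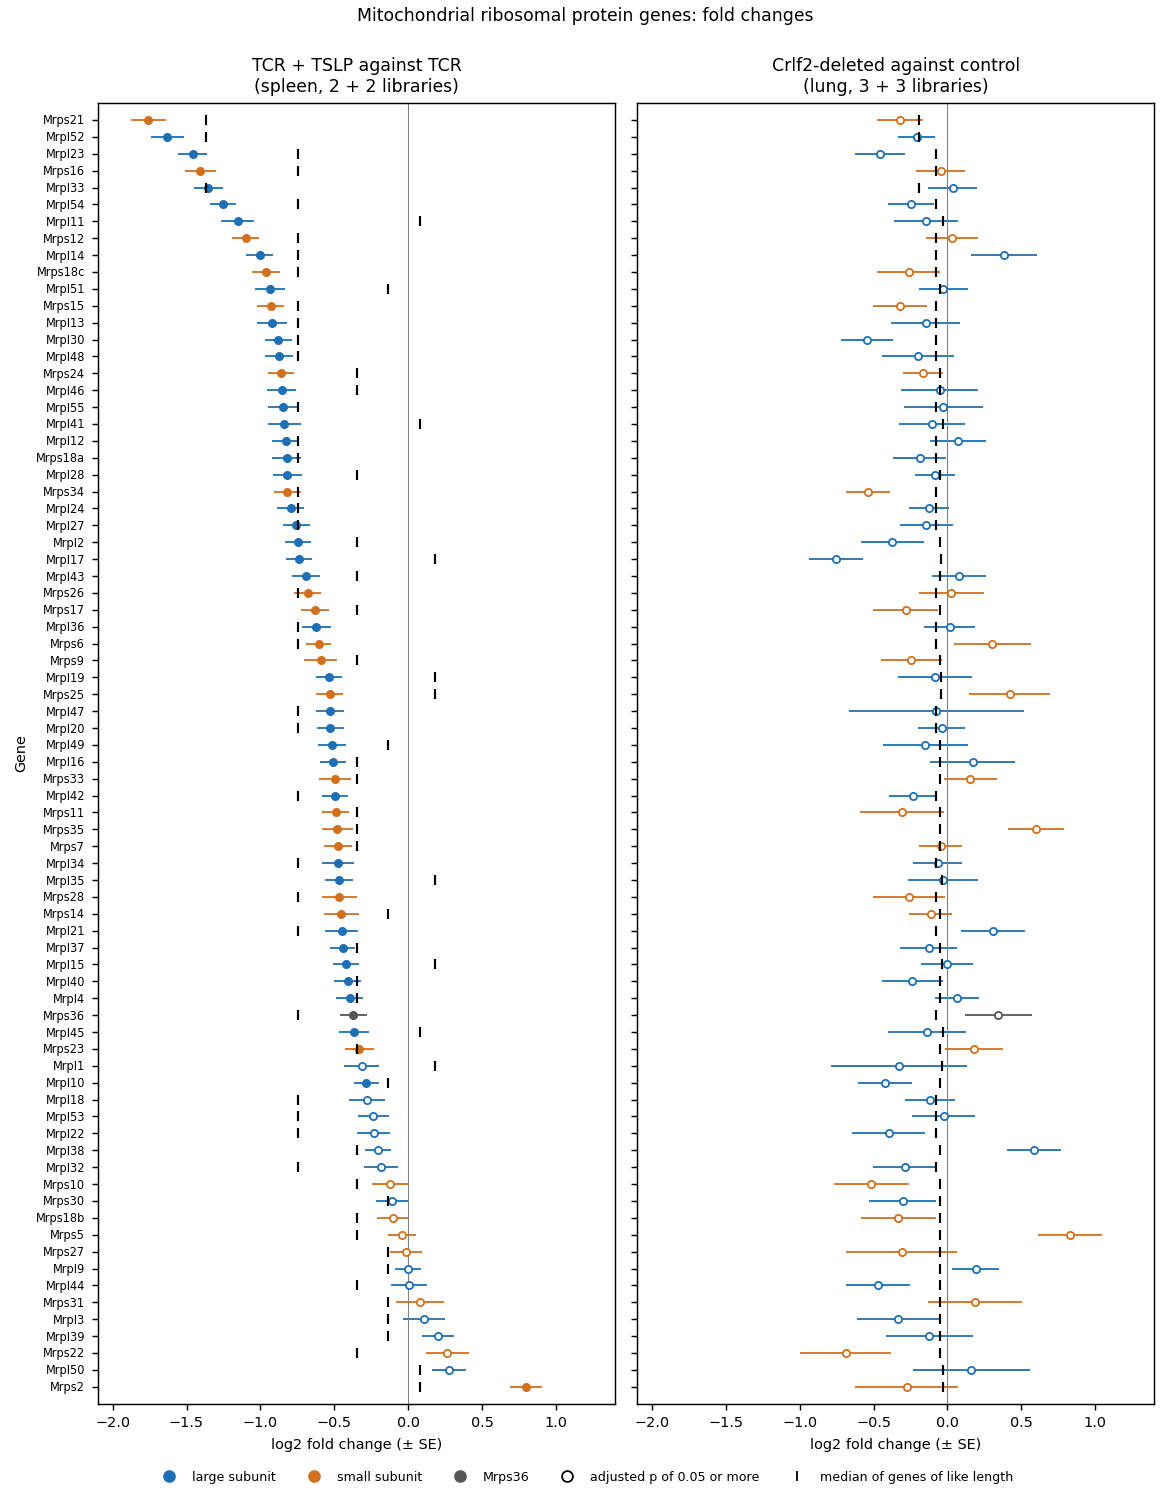
Log2 fold change of each member (points with bars of 1 SE, filled where adjusted p is under 0.05, edgeR) for TCR + TSLP against TCR and for Crlf2-deleted against control lung, with members ordered by the spleen value and black ticks at the median of other genes of like length. In spleen 57 filled points lie below 0 and 1 above, from Mrps21 at -1.76 to Mrps2 at 0.80, and in lung no point is filled.

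Before any correction for length, falls were found in both subunits, and in proteins with and without a bacterial relative. Among large-subunit proteins with a bacterial relative, 23 of 29 fell and 0 rose (median log2 fold change -0.53), and among those of mitochondria only, 14 of 20 fell and 0 rose (-0.51). Among small-subunit proteins with a bacterial relative, 13 of 16 fell and 1 rose (-0.60), and among those of mitochondria only, 6 of 10 fell and 0 rose (-0.40). The share that fell was lowest in this last class, and the difference between classes was not tested. Among all genes tested, 23.1% fell and 22.7% rose. With a smooth length trend taken out of each library, as described below, 13, 9, 8 and 2 members of these classes fell, in the same order. In that fit 4, 4, 3 and 2 rose, against 17.4% of all genes lower and 24.9% higher. The median of the last class was then -0.009.

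The 6 largest falls were in short genes of both subunits. Mrps21 stood at 245 and 197.7 CPM without and 67.9 and 63.0 with TSLP, and its log2 fold change was -1.76 (SE 0.12), with adjusted p = 0.000159 by the edgeR quasi-likelihood test. Mrpl52 went from 209 and 172 to 63.7 and 59.3 CPM (-1.63, SE 0.11). The TSLP libraries lay at about the same level as each other and well below both TCR libraries, which themselves differed more. Mrpl23, at the exit tunnel, went from 122 and 114 to 45.3 and 41.0 CPM (-1.46, SE 0.10). Mrps16, a small-subunit protein with a bacterial relative, went from 165 and 141 to 59.0 and 56.0 CPM (-1.41, SE 0.11). Mrpl33, a large-subunit protein with a bacterial relative, went from 140 and 140 to 58.3 and 51.6 (-1.35, SE 0.10), and Mrpl54, a large-subunit protein of mitochondria only, from 189 and 185 to 80.4 and 76.7 (-1.25, SE 0.09). The groups do not overlap for any of these 6.

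Proteins with known tasks in the ribosome moved by different amounts. The stalk that recruits translation factors is built from Mrpl10, Mrpl11 and Mrpl12. Mrpl11 went from 124 and 112 CPM to 57.4 and 48.9 (log2 fold change -1.15, SE 0.11, adjusted p = 0.000234, edgeR), and Mrpl12 from 317 and 321 to 188 and 171 (-0.83, SE 0.09, adjusted p = 0.000357, edgeR). Mrpl10 fell least of the stalk proteins, from 100 and 102 to 83.4 and 82.6 CPM (-0.28, SE 0.08, adjusted p = 0.0268, edgeR), and its call was lost without either TCR + TSLP library. Close to the peptidyl transferase centre, Mrpl2 went from 110 and 110 to 67.0 and 64.1 CPM (-0.75, SE 0.09), whereas Mrpl3 stood at 54.9 and 74.5 without and 70.3 and 68.9 with TSLP (0.11, SE 0.14) and did not pass. At the tunnel exit, Mrpl45, which helps to hold the ribosome at the inner membrane, went from 99.1 and 114 to 84.3 and 80.8 CPM (-0.37, SE 0.10, adjusted p = 0.018, edgeR), a call also lost without either TCR + TSLP library. Mrpl44, related to ribonuclease III, was at 29.5 and 37.1 against 33.0 and 33.8 CPM (0.00, SE 0.12) and did not pass.

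In the small subunit, Mrps12, a protein of the decoding centre, went from 108 and 114 CPM to 52.7 and 50.7 (log2 fold change -1.10, SE 0.09, adjusted p = 0.000159, edgeR). Mrps7, in the head of the subunit, fell less, from 127 and 142 to 98.7 and 94.9 CPM (-0.48, SE 0.09), a call that was lost without TCR + TSLP replicate 2. Mrps34, of mitochondria only, went from 92.2 and 100.1 to 55.9 and 53.2 CPM (-0.82, SE 0.09). Other small-subunit proteins did not pass. Mrps5 was at 72.5 and 80.8 against 75.9 and 72.7 CPM (-0.04, SE 0.10), and Mrps27, a pentatricopeptide repeat protein, at 47.2 and 54.9 against 52.4 and 48.6 (-0.02, SE 0.11). For these 2 genes the libraries of the groups overlap. Of the Mrps18 variants, Mrps18a (-0.82, SE 0.10) and Mrps18c (-0.96, SE 0.10) fell, while Mrps18b was at 88 and 102.9 against 92.1 and 85.3 CPM (-0.11, SE 0.10) and did not pass. The difference between the variants was not tested.

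Mrps2, a protein of the small subunit with a bacterial relative, was the only member called higher. It stood at 28.2 and 33.4 CPM without and 53.8 and 53.3 with TSLP, a 1.74-fold rise (log2 fold change 0.80, SE 0.11, adjusted p = 0.000974, edgeR quasi-likelihood test). Both TCR + TSLP libraries were above both TCR libraries, and the rise passed in every other fit tried except that with all 4 groups together, where it was 0.84 with an adjusted p of 0.074 (edgeR). That fit, which also takes the spread of the lung libraries, called 23 members lower (against 5.65% of all genes) and 0 higher (against 3.75%). Its RefSeq row is 2079 bases long, and the RefSeq gene span, which takes in further transcripts, is chr2:28465951-28471177 (mm10, plus strand). Its GENCODE exons overlap no exon of another gene, and its shortest GENCODE coding transcript has nearly the length of that row, 2080 bases. Next in order came Mrpl50 (0.28, SE 0.12), Mrps22 (0.26, SE 0.15), a protein of mitochondria only that is mutated in a human mitochondrial disease, and Mrpl39 (0.20, SE 0.11). None of these 3 passed, although their groups did not overlap. Whether members other than Mrps2 were called higher depended on the fit. With library totals alone 4 members were higher (against 38.3% of all genes), and with a length trend removed, as given below, 14 (against 24.9%). For Mrps22, Mrpl50, Mrps31, Mrpl3 and Mrpl39 the call also depended on TCR replicate 2. The 2 TCR libraries differed for these genes, and for Mrps22 they stood at 33.7 and 46.5 CPM against 48.9 and 47.4 with TSLP.

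**Figure D3:**
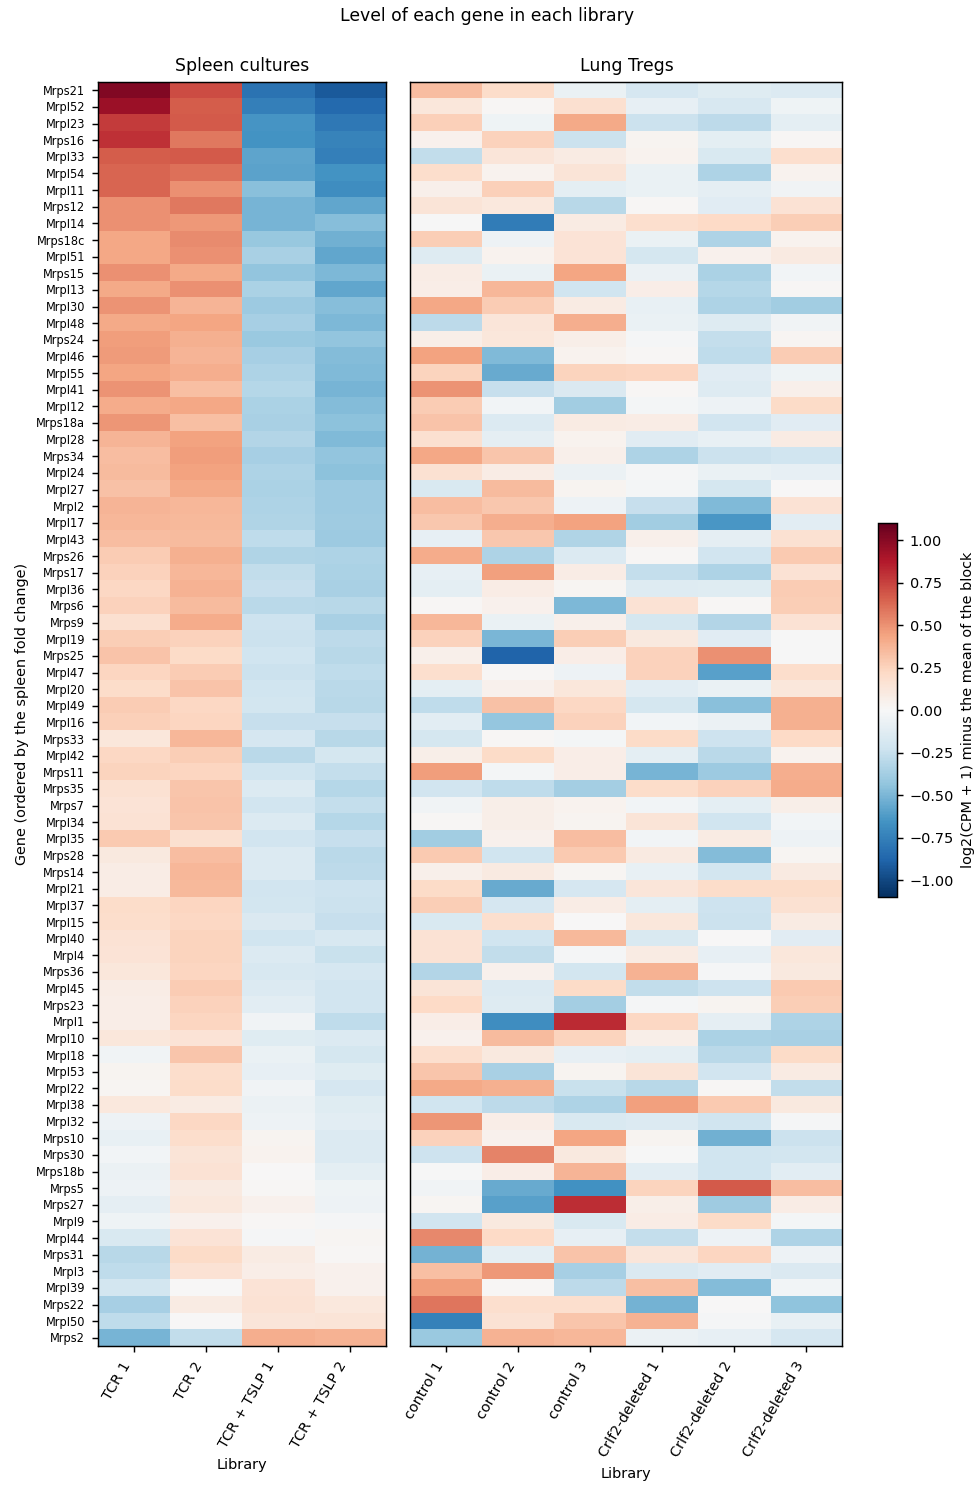
Log2(CPM + 1) of each member in each library, minus the member's mean over the libraries of its tissue (colour scale from -1.1 to 1.1), with members in the order of the spleen fold change. In spleen the TCR libraries are above the mean for most members and the TCR + TSLP libraries below it, with Mrps2 the other way, and in lung no member passed the test.

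Members are short genes, and short genes as a whole were lower with TSLP. The median member was 1047.5 bases long (407 to 6712) and the median other gene with a curated messenger RNA 2378.5. Among other tested genes under 500 bases 93.0% fell (median log2 fold change -1.37), from 500 to under 1000 bases 66.9% (-0.74), from 1000 to under 1500 bases 44.1% (-0.35), and from 5000 bases on 9.77% (0.18). Beside these, members under 500 bases fell in 3 of 3 cases (median -1.63), those from 500 to under 1000 bases in 26 of 30 (-0.78) and those from 1000 to under 1500 bases in 16 of 22 (-0.48). Members from 1500 to under 2000 bases fell in 4 of 10 cases (-0.06, beside -0.14 for other genes), those from 2000 to under 3000 bases in 3 of 5, with 1 higher (-0.37, beside 0.08), and those of 5000 bases and more in 3 of 3 (-0.54, beside 0.18). Adding up, over the members, the share of other genes of like length that fell gives 36.7, beside the 57 members that did. The share called also depends on read counts, which were not matched here. Every member had at least 558 reads in each spleen library, while other genes had only to pass the filter at a minimum count of 10. A member's log2 fold change minus the median of its length class was -0.10 in the median, with 46 members below and 30 above. What sets the relation of change to length in these libraries was not tested.

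**Figure D4:**
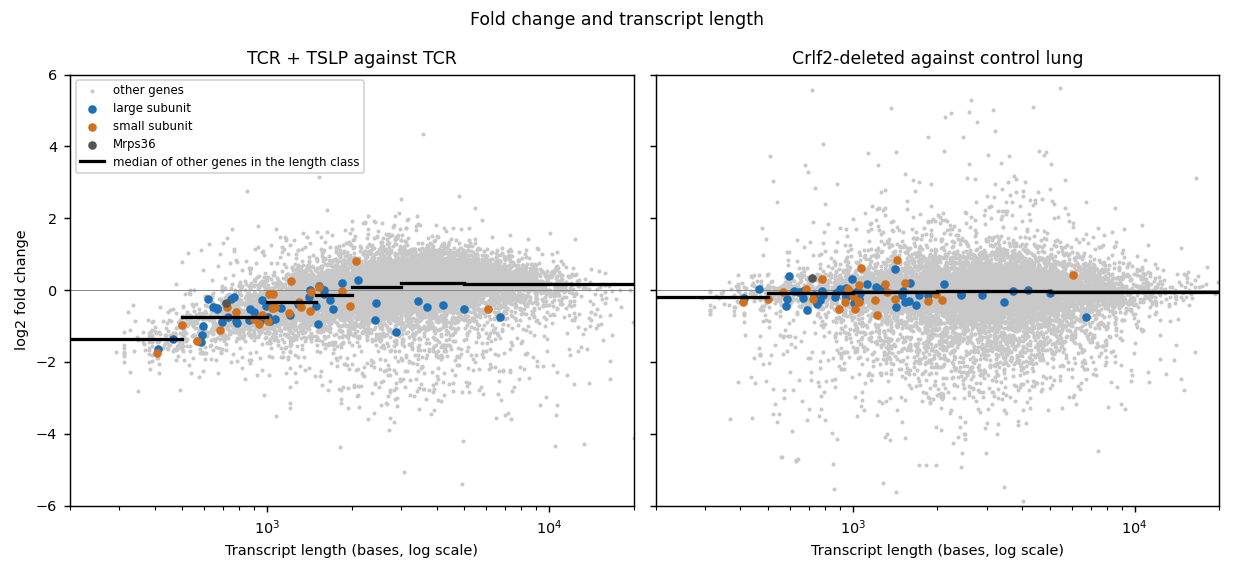
Log2 fold change against RefSeq transcript length (log axis) for members (coloured) and other tested genes (grey) in the spleen and lung comparisons, with black bars at the median of other genes in each length class. In spleen the bars climb from -1.37 under 500 bases to 0.18 from 5000 bases, and in lung they lie near 0. Beyond the vertical range lie 1 other gene in spleen and 6 in lung, and 6 in each lie beyond the length axis.

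With a smooth length trend taken out of each library (loess, span 0.3), 32 members fell (against 17.4% of all genes tested), 14 rose (against 24.9%) and the median member was at -0.11 (all genes 0.06). Of the 57 members called lower before, 31 stayed lower, 22 lost the call and 4 were called higher. Mrps36 was one of the latter, at -0.37 (SE 0.09) before and 0.37 (SE 0.09) after. The lengths themselves matter here, since several RefSeq rows are long where GENCODE has a short coding transcript. With the shortest GENCODE coding transcript as the length, an alternative chosen after seeing the data, 43 members fell (against 19.8% of all genes), 3 rose (Mrps2, Mrps22 and Mrps23, against 24.6%, with Mrps23 turned from -0.33 and called lower to 0.31 and called higher) and the median was -0.32. By these lengths 59 of the 76 members were below the median of their class. In all 4 fits (uncorrected, RefSeq length, RefSeq length with GC content, and GENCODE length) 26 members were called lower and 1, Mrps2, higher. The share of all genes called in all 4 fits is not given, so these counts carry no comparison with other genes.

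Those 26 included 19 large-subunit and 7 small-subunit proteins, among them Mrps21, Mrpl52, Mrpl23, Mrps16, Mrpl33, Mrpl11, Mrpl12 and Mrpl51. The members farthest below genes of like RefSeq length were Mrpl11 (a difference of -1.23 on the log2 scale), Mrpl17 (-0.92), Mrpl41 (-0.92) and Mrpl51 (-0.80). Mrpl17 went from 93.5 and 92.7 to 57.1 and 54.6 CPM (log2 fold change -0.74, SE 0.09). Mrpl41 went from 78.5 and 70.0 to 44.5 and 38.7 CPM (-0.84, SE 0.11), and Mrpl51 from 142 and 150 to 81.9 and 70.4 (-0.94, SE 0.10). With the GENCODE length trend removed these were at -0.82 (Mrpl11), -0.46 (Mrpl17), -0.48 (Mrpl41) and -1.04 (Mrpl51), all still called lower. Farthest above genes of like length were Mrps2 (0.72 above), Mrps22 (0.61), Mrpl32 (0.56) and Mrpl22 (0.51). Mrpl32, whose protein is matured by a mitochondrial protease, stood at 38.4 and 46.9 without and 38.3 and 36.8 CPM with TSLP (-0.18, SE 0.12), and Mrpl22, at the exit tunnel, at 34.2 and 39 against 32.7 and 29.5 (-0.24, SE 0.11). Neither passed the uncorrected test. With the GENCODE length trend removed, Mrps2 was at 0.79 and Mrps22 at 0.49, both called higher, while Mrpl22 was at 0.15 and Mrpl32 at -0.27, neither of them called. Set against classes by GENCODE length, Mrpl22 was 0.13 above the median of its class and Mrpl32 at -0.38, below it.

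Among the other genes of mitochondrial translation, calls went in both directions. Of the 6 ribosomal proteins without an Mrp symbol, 5 fell and 1 rose (median log2 fold change -1.01), and 4 fell and 1 rose with the length trend removed. Gadd45gip1, a large-subunit protein, had the largest fall (from 292 to 121 CPM in the mean, -1.26, SE 0.10), followed by Aurkaip1 (-1.14), Ict1 (-1.10), a peptidyl-tRNA hydrolase built into the ribosome, Chchd1 (-0.91) and Dap3 (-0.42), a GTP-binding small-subunit protein. Ptcd3 rose (0.29, adjusted p = 0.029, edgeR). Of 27 assembly and rRNA modification factors 8 fell, 6 rose and 13 did not pass (median -0.05), and with the length trend removed 5 fell and 9 rose. These shares are near those of all genes tested (23.1% lower and 22.7% higher, or 17.4% and 24.9% with the trend removed). Falls included Mpv17l2 (-1.17), Ftsj2 (-0.89), an rRNA methyltransferase, Malsu1 (-0.86) and Rbfa (-0.74), a small-subunit assembly factor, and the largest rise was in Mettl15 (1.69), at low levels of 1.15 against 3.67 CPM. Of 15 translation factors and mRNA handling proteins 3 fell (Slirp, -1.23, Mtif3, -0.79, and Tufm, -0.36), 4 rose (Gfm1, 0.78, Taco1, 0.45, Lrpprc, 0.41, and Gfm2, 0.36) and 8 did not pass, again shares near those of all genes. Slirp and Lrpprc, whose products form 1 complex on mitochondrial messages, thus had opposite signs, and Slirp did not pass with the length trend removed.

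Of 12 genes of mitochondrial DNA transcription and replication 4 fell, 3 rose and 5 did not pass (median log2 fold change -0.03), and 3 fell and 3 rose with the length trend removed. Beside 23.1% lower and 22.7% higher among all genes, these counts show no direction for the list. Ssbp1, the mitochondrial single-strand DNA-binding protein, fell (-0.64), and Tefm (0.71), Tfb2m (0.47) and Mgme1 (0.43) rose. Of 10 nuclear regulators of mitochondrial genes 5 rose, 1 fell and 4 did not pass (median 0.27). With the length trend removed the counts were the same, but the genes were not. Nrf1 lost its call there (adjusted p = 0.0643, edgeR) and Gabpb2 gained one (adjusted p = 0.0359, edgeR). In the uncorrected test Myc rose from 184 to 341 CPM in the mean (0.89, SE 0.13, adjusted p = 0.00129, edgeR). Gabpa (0.79), Gabpb1 (0.62), Nrf1 (0.35) and Yy1 (0.30) also rose in that test. With Myc, these are the factors whose motifs were searched in the member promoters, but a link between their rises and the members was not tested. Ppargc1a fell (-1.37) at under 1 CPM in both groups. The cytosolic ribosomal protein genes, used only as a comparator, fell in 73 of 75 tested cases and rose in 0 (median -1.09), and took 21.1 and 19.8% of reads on genes in TCR and 11.9 and 11.3% in TCR + TSLP. With the length trend removed 47 of them fell and 4 rose. Reads of those genes may be shared with pseudogenes.

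The second comparison asked how deleting Crlf2 changes Tregs of the allergic lung. No mitochondrial ribosomal protein gene passed the test. Of 76 members tested among 12717 genes, 0 fell and 0 rose (against 1.79% of all genes called in either direction, edgeR quasi-likelihood test). At an unadjusted p under 0.05 there were 5 lower and 3 higher (10.5%, against 15.9% of all genes), and DESeq2 called 1 lower (Mrpl17) and 1 higher (Mrps5), against 5.46% of all genes. The median log2 fold change was -0.12, beside -0.04 for all genes, and its sign depended on scaling, at 0.05 with library totals alone (all genes 0.14) and 0.24 on log2(RPKM + 1) (all genes 0.21). Without control replicate 3, 0 members fell and 0 rose (against 4.11% of all genes called in either direction, edgeR) and the median was -0.11. In lung the median difference from genes of like length was -0.06 and the class medians of other genes ran only from -0.19 to -0.03. The SE of a member was 0.21 in the median, against 0.10 in spleen. Read counts were also lower, down to 4 reads for Mrpl47 in control replicate 2, so that differences as small as many of those in spleen may not have been detectable.

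Mrpl17 came nearest to the threshold, at 59.2, 63.6 and 65.6 CPM in the control libraries and 36.7, 30.6 and 44.3 in the Crlf2-deleted ones (log2 fold change -0.75, SE 0.18, adjusted p = 0.0897, edgeR quasi-likelihood test). Mrps5 was at 55.2, 38.3 and 35.5 CPM in controls and 67.3, 91.0 and 72.2 after deletion (0.83, SE 0.22, adjusted p = 0.108, edgeR). For both genes the groups did not overlap. Without control replicate 3 they were at -0.71 (adjusted p = 0.111, edgeR) and 0.68 (adjusted p = 0.136, edgeR). Mrps34 was at 105, 96.5 and 81.3 CPM in controls against 61.3, 66.2 and 67.0 (-0.54, SE 0.15, adjusted p = 0.122, edgeR), and at -0.64 without control replicate 3 (adjusted p = 0.0511, edgeR). Mrpl38 was at 29.6, 28.1 and 27.0 CPM against 47.5, 42.4 and 37.1 (0.59, SE 0.18), and Mrps35 at 23.8, 22.6 and 21.1 against 32.0, 33.1 and 37.1 (0.60, SE 0.19). Neither passed, and both had all 3 Crlf2-deleted libraries above all controls. Groups were separate and lower for 12 members (15.8%, against 11.6% of all genes) and separate and higher for 4 (Mrps5, Mrps35, Mrpl38 and Mrpl14, 5.26%, against 10.5% of all genes). With all 4 groups in 1 fit, which borrows the spread of the spleen libraries, Mrpl17, Mrpl30 and Mrps34 passed as lower and Mrpl38, Mrps35 and Mrps5 as higher, against 6.04% of all genes.

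The members with the largest values in spleen had small differences in lung. Mrps21 was at 89.3, 80.7 and 66.5 CPM in controls and 61.7, 63.9 and 63.3 after deletion (log2 fold change -0.32, SE 0.15), and Mrpl52 at 96.8, 89.6 and 100.4 against 83.7, 78.8 and 86.3 (-0.21, SE 0.13). In both the groups were separate by a narrow gap and did not pass. Mrps2, which rose in spleen, was at 7.89, 14.4 and 14.2 CPM in controls and 10.3, 10.1 and 9.40 after deletion (-0.28, SE 0.35), with overlapping groups. Mrps22 was at 20.3, 15.1 and 15 CPM against 8.86, 13.2 and 9.40 (-0.69, SE 0.31) and did not pass. The 2 comparisons share no library, and the difference between them was not tested.

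Of the genes in the other lists, Myc, higher with TSLP in spleen, came nearest to the threshold in lung, and passed with the length trend removed (adjusted p = 0.0492, edgeR). It was at 113 CPM in control and 57.7 in Crlf2-deleted lung in the mean (log2 fold change -0.99, SE 0.20, adjusted p = 0.0506, edgeR quasi-likelihood test), and at -0.90 without control replicate 3 (adjusted p = 0.0509, edgeR). Gadd45gip1 was at 80.8 against 43.5 CPM (-0.90, SE 0.20, adjusted p = 0.0728, edgeR) and C1qbp, a matrix protein of ribosome assembly, at 66 against 40.2 (-0.72, SE 0.18, adjusted p = 0.0996, edgeR). Markers of other cells differed between lung libraries. The summed level of 5 lung epithelium markers ran from 16633 to 73604 CPM in control and from 2349 to 19266 in Crlf2-deleted libraries, that of 4 myeloid markers from 247 to 3726 and from 983 to 1009, and that of 2 erythroid markers from 642 to 53719 and from 720 to 1066. The highest epithelial sum was that of control replicate 1 and the highest of the others those of control replicate 3. In the TCR libraries 4 of the 5 epithelial markers were at 0, and in the TCR + TSLP libraries 3. The part of other cells in the lung values of the members was not tested.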

How the data were processed

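The deposited files hold, per library, whole-read counts and RPKM for 31682 RefSeq transcript rows, made by the authors from 50 bp single-end reads, per the labels' protocols and the file headers. Stimulated Tregs had libraries from a strand-specific kit with removal of ribosomal RNA, per the labels' protocols, which name no kit for the lung Tregs in particular. Tools listed in the submitters' processing notes are TopHat2 2.2.1, Bowtie2 2.2.6, bedtools 2.25.0, SAMtools 0.1.8 and edgeR, with the builds mm10 and GRCm38. What each did, the strand rule and how multimapping reads were handled are not given in the sources used. The deposited RPKM values divide reads by transcript length and by a library total larger than the reads listed.

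Each of the 23992 symbols was represented by the row with the most reads on average. For members only curated messenger RNA rows were taken, and 6 members had several. Within each comparison all genes were fitted in edgeR (4.0.16, under R 4.3.3) by the two-sided robust quasi-likelihood test on TMM-scaled counts that passed filterByExpr at a minimum count of 10, with Benjamini-Hochberg adjustment over all genes tested and a threshold of 0.05. The SE is the log2 fold change divided by the root of F. CPM are after TMM within the comparison. Genes of like length are other tested genes with curated messenger RNA rows in classes with edges at 500, 1000, 1500, 2000, 3000 and 5000 bases. Between replicates, counts differed beyond sampling noise (chi-square per degree of freedom 6.18 to 180). The test was also run on simulated counts with the same spread for every gene, a simpler setting than these libraries, so that run lends the calls no support. Alternatives were DESeq2 1.42.0, limma 3.58.1 on log2(RPKM + 1), other scalings, filters, length and GC corrections, other length classes, summed transcripts, only members without overlaps, all groups in 1 fit, a replicate block and leaving out each library. Added after seeing the data were a crossed block, GENCODE vM21 lengths and classes without cytosolic ribosomal proteins.

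The members and all lists were chosen with earlier results of these data known, and no list is independent support. Named members were those with a fixed role, the 6 highest and 6 lowest fold changes, the 4 highest and lowest RPKM, the 4 farthest above and below their length class in each comparison, and any called against the direction of most. From each other list up to 4 genes by p were to be named, and further called genes of those lists, as well as Mrpl35, Mrpl51, Mrps23 and Mrpl47, were added after their values were seen.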

Additional observations from a re-analysis of the deposited data

How the results depend on the processing

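In the TSLP comparison the median log2 fold change of members stayed below 0 in every fit run. Leaving out each library in turn gave 38 to 66 members lower (38 without TCR + TSLP replicate 2), 1 to 6 higher (6 without TCR replicate 2), a median of -0.57 to -0.48 and a median difference from genes of like length of -0.11 to -0.09. A group left with 1 library is assumed to vary like the other. Library totals alone gave 4 higher and a median of -0.28, limma on log2(RPKM + 1) gave 25 lower, 4 higher, a median of -0.13 and a length-class difference of -0.13, and DESeq2 a length-class difference of -0.072. Without a filter 2 were higher and the class difference was -0.084. With all 4 groups in 1 fit 23 were lower, 0 higher and the class difference was -0.13. With the length trend removed 32 were lower, 14 higher and the median was -0.11. With length and GC trends removed these were 30, 13 and -0.13, and the class difference -0.13. With the GENCODE length trend removed 3 were higher, the median was -0.32 and the class difference -0.33. The class difference was -0.34 with classes by GENCODE length, -0.12 without cytosolic ribosomal proteins and -0.14 over members without overlaps. The cause of these shifts was not tested.

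The members below had another sign than in the reported test and were called in that test, in the alternative or in both. They do not cover every such member. With the length trend removed, Mrpl20 (-0.53 before, 0.27 after), Mrpl34 (-0.48 and 0.35) and Mrpl42 (-0.49 and 0.31) also turned from called lower to called higher. With the length trend removed Mrpl22 was at 0.47, Mrpl32 at 0.50, Mrps18b at 0.36, Mrps18c at 0.031, Mrps28 at 0.26, Mrpl47 at 0.062, Mrps23 at 0.0076, Mrps36 at 0.37, Mrps5 at 0.23 and Mrps6 at 0.062. With length and GC trends removed Mrpl22 was at 0.41, Mrpl32 at 0.25, Mrps18b at 0.34, Mrps28 at 0.30, Mrps36 at 0.23 and Mrps6 at 0.080. With the GENCODE length trend removed Mrpl10 was at 0.095, Mrps36 at 0.12 and Mrps23 at 0.31, and of members called in neither fit Mrps18b (0.24) and Mrpl22 (0.15) had also turned sign. With limma Mrpl10 was at 0.084, Mrps23 at 0.041, Mrpl45 at 0.0067 and Mrps36 at 0.000812.

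In lung the median was 0.053 with library totals alone (all genes 0.14) and 0.24 with limma (all genes 0.21), where 3 members were higher (against 5.99% of all genes). DESeq2 called 1 lower and 1 higher (against 5.46% of all genes in either direction), and all 4 groups in 1 fit 3 and 3 (against 6.04%). Leaving out each lung library gave 0 calls and a median of -0.18 to -0.04 (-0.11 without control replicate 3). A mean RPKM of at least 1 left 74 members to test there.

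Whether the replicate numbers pair the samples is not known, and the main test treated the libraries as unpaired. Same-numbered libraries had deviations from their group means with r of -0.21 in spleen and 0.10, -0.15 and -0.04 in lung. Deviations within a group sum to 0, and in spleen they mirror each other, so these values cannot decide on pairing. With the replicate block 56 members were lower and 1 higher with TSLP, and 0 in lung. A crossed block, chosen after seeing the data, gave 59 lower and 3 higher. For these block fits, too, the share of all genes called is not given.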

Other observations

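Mrps6, a small-subunit protein with a bacterial relative, shares exons on the same strand with Slc5a3, an inositol transporter gene, and was at 131 and 139 CPM without and 89.1 and 88.1 with TSLP (-0.61 on the log2 scale, SE 0.09, edgeR quasi-likelihood test, adjusted p = 0.00119). Reads of these 2 genes cannot be told apart here. Mrps28 (36.8 and 43.2 against 30.6 and 27.4 CPM, -0.47, SE 0.12) fell, and its call was lost without TCR + TSLP replicate 2. Mrps30, a large-subunit protein despite its name, was at 71.5 and 80.9 against 75.4 and 65.9 CPM (-0.11, SE 0.11) and did not pass. Mrpl19 (88.5 and 87.7 against 61.9 and 59.7 CPM, -0.54, SE 0.09) and Mrps25 (121 and 112 against 83.2 and 78.2 CPM, -0.53, SE 0.09), members with transcripts of 5000 bases or more, fell although other genes of that length had a median of 0.18.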
